A study of Mus musculus with 2 samples.

Results

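The complement components that macrophages make were described here through 8 genes, C1qa, C1qb, C1qc, C3, C4b, C2, Cfb and Cfp, chosen by name from 54446 counted genes. Their messenger RNA was measured in bone marrow derived macrophages of C57BL/6 mice, a standard culture model of tissue macrophages. There was 1 library from cells given IL-36 gamma, which belongs to the interleukin-1 family of cytokines, and 1 library from untreated control cells. Dose, time of exposure and number of animals per library are not given in the sources used. With 1 library per group no difference has a replicate check, no test of the conditions was possible and no p-value is given.

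Complement is a cascade of plasma proteins that marks microbes and dying cells for uptake and can open pores in membranes. The classical pathway starts when C1q binds antibody or altered surfaces, and proceeds through C4 and C2. The alternative pathway turns over on C3 itself, with factor B as its protease and properdin as its stabiliser. The liver makes most circulating components, whereas macrophages and dendritic cells are the main source of C1q, and myeloid cells also make properdin.

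The libraries held 17267900 counts in genes for IL-36 gamma and 17426367 for the control. Levels below are CPM, counts divided by a scaled library size. Ratios are given as IL-36 gamma over control, with an exact 95% Clopper-Pearson interval. With 1 library per group it covers counting error only. Reads copied by PCR are not independent molecules, so the interval can be too narrow even for that. All 9 macrophage markers examined were present, with 502870 summed counts in the IL-36 gamma library and 531223 in the control library. Of the T cell markers, Cd3e, Cd3g and Cd8a had 0 counts in both libraries and Cd3d had 0 with IL-36 gamma and 2 in the control. Cd4, which some macrophages also carry, had 128 counts with IL-36 gamma and 232 in the control, a ratio of 0.579 (0.463 to 0.722). The mast cell and basophil genes Cpa3, Mcpt8 and Fcer1a had 0 counts in both. The 4 B cell markers summed to 6 counts with IL-36 gamma and 22 in the control, and the 5 dendritic cell markers to 14 with IL-36 gamma and 27 in the control. Liver transcripts were nevertheless present in both libraries. Albumin (Alb) had 1381 counts in the IL-36 gamma library and 1060 in the control library, a ratio of 1.37 (1.26 to 1.48). The sum of Alb, Apoa1, Ttr and Serpina1b was 1951 counts with IL-36 gamma and 1480 in the control, and 3 of these 4 hepatocyte genes had an interval above 1. A further 22 liver genes, chosen after that was seen, summed to 2738 counts with IL-36 gamma and 2126 in the control, with 13 intervals above 1 and 0 below. Over all measured genes 20.2% had an interval above 1 and 16.5% below. In bulk RNA, a change in the number of cells of a type and a change in RNA per cell cannot be told apart.

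The 8 genes covered a wide span of expression, in nearly the same order in both libraries. Levels of different genes were compared as CPM per kilobase of exon. The C1q chain genes stood highest. C1qb reached 1656 CPM per kilobase with IL-36 gamma and 1561 in the control, rank 17 of all genes in both. C1qc had 1014 with IL-36 gamma and 969 in the control, and C1qa 850.0 with IL-36 gamma and 872 in the control. Properdin (Cfp) followed with 590 CPM per kilobase in the IL-36 gamma library and 525 in the control library, rank 61 in both. C3 had 88.0 CPM per kilobase with IL-36 gamma and 81.3 in the control. A wide gap separated these 5 genes from the rest. C4b had 1.34 CPM per kilobase with IL-36 gamma and 0.879 in the control, C2 had 0.885 with IL-36 gamma and 0.916 in the control, and Cfb 0.105 with IL-36 gamma and 0.0598 in the control. C4b stood above C2 in the IL-36 gamma library and below it in the control library. Per kilobase of exon that overlaps no other gene of the same strand, C2 stood higher in both. That length does not allow for the sequence that C4b shares with C4a, so the order of C2 and C4b is not settled.

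**Figure D1:**
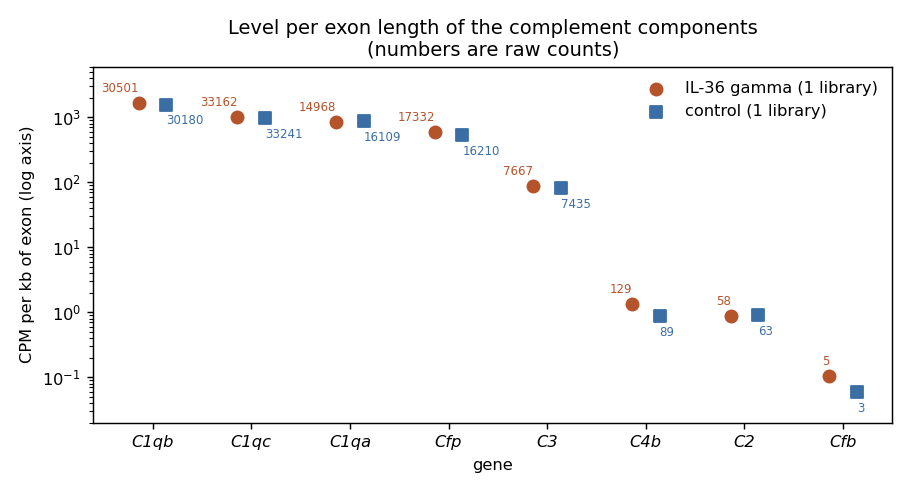
Level of each gene as CPM per kilobase of exon (log axis) in the IL-36 gamma library (circles, left) and the control library (squares, right), with the raw counts printed beside the points. C1qb, C1qc, C1qa, Cfp and C3 lie at 81.3 or above in both libraries, and C4b, C2 and Cfb at 1.34 or below.

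Of the 8 genes, 7 had a mean count of at least 10 and were measured, and Cfb was not. The interval of the ratio lay above 1 for 5 (C1qb, C1qc, C3, C4b and Cfp), below 1 for 1 (C1qa), and included 1 for C2. Among all 14379 measured genes, 20.2% had an interval above 1 and 16.5% below. Among the highest 10% by expression, which holds C1qa, C1qb, C1qc, C3 and Cfp, the shares were 56.7% above and 22.4% below, so intervals of abundant genes that miss 1 were common. With scaling by total counts, 39.2% of the genes whose interval missed 1 were above it, against 55.0% with the scaling used here. None of the 7 measured genes had an interval wholly past 1.5-fold, against 0.348% of measured genes higher and 0.529% lower, and 0 lay wholly past 2-fold, against 0.0765% higher and 0.0904% lower. The median log2 ratio of the 7 was 0.09, and that of all measured genes 0.01.

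The 3 chains of C1q, the recognition molecule of the classical pathway, are encoded side by side on chromosome 4 (mm10, minus strand) and assemble into 1 protein. C1qb (ENSMUSG00000036905, 136880129 to 136886187) had 30501 counts with IL-36 gamma and 30180 in the control, a ratio of 1.06 (1.04 to 1.08). C1qc (ENSMUSG00000036896, 136889804 to 136893065) had 33162 counts with IL-36 gamma and 33241 in the control, a ratio of 1.05 (1.03 to 1.06). C1qa (ENSMUSG00000036887, 136895917 to 136898803) had 14968 counts with IL-36 gamma and 16109 in the control, a ratio of 0.975 (0.954 to 0.997). These ratios sit close to the median of the highest 10% of genes by expression, 1.07, whose middle 90% of genes ran from 0.811 to 1.28. Within that band, 47.4% of genes had a lower ratio than C1qb, 43.8% a lower one than C1qc and 26.2% a lower one than C1qa. The direction of C1qb and C1qc depended on the scaling. The ratio of C1qb was 0.984 and that of C1qc 0.968 once a trend of the ratio with exon length was removed. Once a trend with expression was removed they were 0.959 for C1qb and 0.945 for C1qc. C1qa kept an interval below 1 under all 6 scalings, between 0.891 and 0.975. Summed over the chains, C1q took 0.455% of all gene counts in the IL-36 gamma library and 0.456% in the control library.

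**Figure D2:**
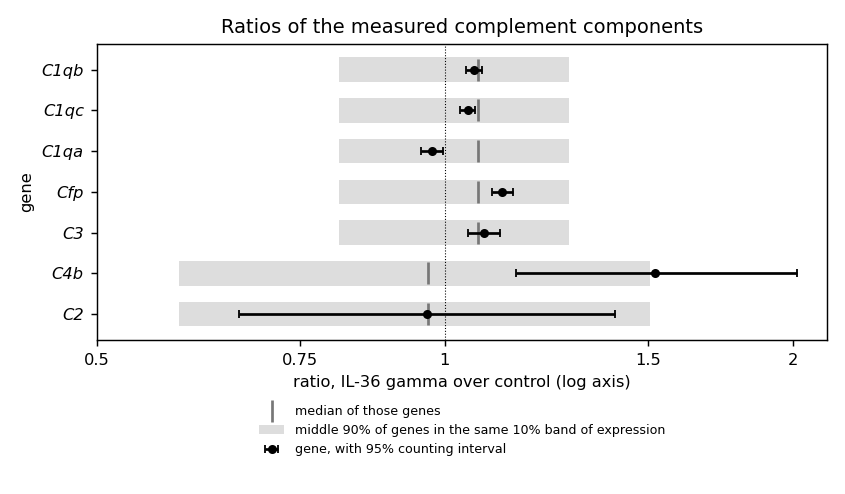
Ratio of IL-36 gamma over control (log axis) for the 7 measured genes, with the 95% counting interval as a bar. Grey boxes give the middle 90% of genes in the same 10% band of expression and grey ticks their median; C4b, at 1.52, is the one gene whose ratio lies outside its box, which ends at 1.51.

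The balance among the chains can be read without any scaling between libraries. C1qa made up 19.0% (18.8 to 19.3) of the C1q chain counts with IL-36 gamma and 20.3% (20.0 to 20.5) in the control. C1qb made up 38.8% (38.4 to 39.1) with IL-36 gamma and 37.9% (37.6 to 38.3) in the control. For C1qc the shares were 42.2% (41.8 to 42.5) with IL-36 gamma and 41.8% (41.5 to 42.1) in the control. C1qa thus took a slightly smaller share in the IL-36 gamma library, with intervals that do not overlap. The count ratio of C1qb to C1qa was 2.04 with IL-36 gamma and 1.87 in the control, a ratio of ratios of 1.09 (1.06 to 1.12, normal approximation on the log scale). C1qb and C1qc differed less, with a count ratio of 0.920 with IL-36 gamma and 0.908 in the control and a ratio of ratios of 1.01 (0.991 to 1.04). Whether 2 cultures treated alike would differ as much was not measured. Per kilobase of all annotated exons C1qb held 47.0% of the chain signal with IL-36 gamma and 45.9% in the control. By the longest transcript of each gene, C1qb held 40.1% with IL-36 gamma and 39.1% in the control. C1qc was close to it, with 39.4% with IL-36 gamma and 39.0% in the control, and C1qa was lower, with 20.6% with IL-36 gamma and 21.9% in the control.

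**Figure D3:**
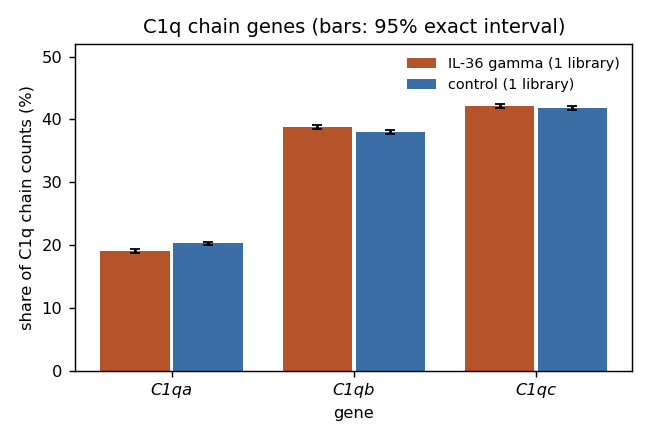
Share of the summed C1qa, C1qb and C1qc counts (percent) taken by each gene in the IL-36 gamma library (left bars) and the control library (right bars), with exact 95% intervals. C1qa takes 19.0% with IL-36 gamma and 20.3% in the control, and its intervals do not overlap.

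The RefSeq promoter table (GRCm38.p6) held 4 of the 8 genes. Bases from the 250 before the RefSeq start site are shown for C1qb and C1qc, the pair of chain genes with nearly the same ratio, and for C3, the component on which the pathways converge. Of the C1qc window, the 151 bases nearest the start lie inside the GENCODE gene and are not shown. Capitals mark matches to the motifs searched, on either strand.
C1qb: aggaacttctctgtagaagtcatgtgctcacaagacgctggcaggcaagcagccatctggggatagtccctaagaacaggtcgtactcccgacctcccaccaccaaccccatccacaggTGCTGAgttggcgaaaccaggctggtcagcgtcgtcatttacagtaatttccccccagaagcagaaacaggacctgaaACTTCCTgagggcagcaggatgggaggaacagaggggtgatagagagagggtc
C1qc: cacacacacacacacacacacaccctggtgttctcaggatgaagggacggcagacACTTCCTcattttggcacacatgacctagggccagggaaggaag
C3: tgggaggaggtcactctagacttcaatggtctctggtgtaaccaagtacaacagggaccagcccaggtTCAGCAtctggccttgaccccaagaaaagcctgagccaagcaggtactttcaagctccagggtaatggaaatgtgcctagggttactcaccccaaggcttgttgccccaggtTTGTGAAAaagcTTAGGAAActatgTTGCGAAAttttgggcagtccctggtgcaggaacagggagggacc
The stretch shown is chr4:136886201-136886450 for C1qb, chr4:136893066-136893164 for C1qc and chr17:57228137-57228386 for C3, all on the minus strand and read 5′ to 3′. The motif of PU.1 (AGGAAGT), a factor that defines the myeloid lineage, was found in C1qb and C1qc, in the reverse orientation, and in 7.69% of all 32851 promoter windows. The MAF half-site (TGCTGA) was in C1qb and C3 and in 16.1% of all windows. The C/EBP motif (TTNNGNAA) occurred at 3 places in C3, within 70 bases of the start. It also occurred at 1 place in the part of the C1qc window inside the gene. At least 1 match was present in 36.8% of all windows and 3 or more in 2.61%. The part of the C1qc window inside the gene also held a match to the NF-kB motif, present in 7.25% of windows. No match overlapped another. The interferon response core (GAAA and GAAA, 2 bases apart), the ETS-IRF composite (GGAA and GAAA, 2 bases apart), the AP-1 site (TGANTCA) and the TATA box (TATAAA) had no match in these 3 windows, and occurred in 2.98%, 2.3%, 6.75% and 12.4% of all windows. The Cfp window, also in the table, had no match to any motif. These are matches of letters, and no binding was measured.

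C3, on which all pathways converge and whose cleaved form attaches to targets through a thioester bond, had similar counts in both libraries. C3 (ENSMUSG00000024164, chromosome 17, 57203970 to 57228136) had 7667 counts with IL-36 gamma and 7435 in the control. This gives 453 CPM with IL-36 gamma, 418 CPM in the control and a ratio of 1.08 (1.05 to 1.12). In the highest 10% by expression, 54.2% of genes had a lower ratio. Its ratio was 1.01 (0.974 to 1.04) once the expression trend was removed. Per kilobase of exon, C3 had 88.0 CPM with IL-36 gamma and 81.3 in the control. Alb had 34.8 CPM per kilobase with IL-36 gamma and 25.5 in the control.

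Among the 7 measured genes C4b had the ratio farthest from 1. It encodes C4, a thioester protein related to C3 that the C1 complex cleaves. C4b (ENSMUSG00000073418, chromosome 17, 34728380 to 34743882) had 129 counts with IL-36 gamma and 89 in the control, or 7.62 CPM with IL-36 gamma and 5.01 CPM in the control. The ratio was 1.52 (1.15 to 2.02), and 96.3% of all measured genes had a lower one. Within its own 10% band of expression, where the middle 90% of genes ran from 0.589 to 1.51, 95.2% had a lower ratio. The interval stayed above 1 under all 6 scalings, with ratios from 1.46 to 1.57. Of the 50-base words of C4b transcripts, 34.6% also occur in C4a, the neighbouring copy. A read lying wholly within such a stretch matches both genes, and how many reads were lost this way was not measured. C4a had 14 counts with IL-36 gamma and 20 in the control, and both genes together had 143 with IL-36 gamma and 109 in the control, a ratio of 1.38 (1.07 to 1.78). Liver transcripts moved the same way as C4b. The count ratio of C4b to Alb was 0.0934 with IL-36 gamma and 0.0840 in the control, a ratio of ratios of 1.11 (0.839 to 1.47). Fibroblast and stromal markers, from cells that can also make C4, moved the other way. The 6 listed summed to 117 counts with IL-36 gamma and 214 in the control, with 3 of 4 measured intervals below 1 and Pdgfra and Lum at 0. Over all measured genes 20.2% had an interval above 1 and 16.5% below. The part of liver and stromal RNA in the C4b difference was not tested.

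C2 and Cfb encode the proteases of the classical and the alternative convertase, and are close relatives that lie 85 bases apart on chromosome 17. C2 (ENSMUSG00000024371, 34862604 to 34898265) had 58 counts with IL-36 gamma and 63 in the control, a ratio of 0.966 (0.665 to 1.40). Cfb (ENSMUSG00000090231, 34856374 to 34862518) had 5 counts with IL-36 gamma and 3 in the control, a ratio of 1.75 (0.340 to 11.3) from which no direction can be read. Both counts come from only part of each gene. A readthrough gene, Gm20547, shares 1656 of the 3872 exonic bases of C2 and 2246 of the 2825 of Cfb on the same strand. Every exonic base of Gm20547 lies in exons of other genes, and it had 0 counts in both libraries. All 133 protein-coding genes of that kind had 0 counts in both libraries, against 29.8% of the 20177 protein-coding genes that share no exonic base on their strand. Only 579 bases of Cfb and 2216 of C2 were free of such sharing. Per kilobase of free exon, Cfb had 0.510 CPM with IL-36 gamma and 0.292 in the control, and C2 had 1.55 with IL-36 gamma and 1.60 in the control. The raw Cfb count therefore does not measure how much factor B message these cells held. Its level per free exon was also low, below that of C2 in both libraries, and rests on only 5 and 3 counts. C2 also shares 161 bases with Zbtb12 on the opposite strand, and the strand setting of the counts is not stated.

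Properdin, the stabiliser of the alternative convertase and the one component here encoded on chromosome X, was abundant and slightly higher. Cfp (ENSMUSG00000001128, 20925454 to 20931555) had 17332 counts with IL-36 gamma and 16210 in the control, or 1024 CPM with IL-36 gamma and 912 CPM in the control. The ratio was 1.12 (1.10 to 1.15), and 67.2% of genes in the highest 10% by expression had a lower one. It stayed above 1 under all 6 scalings, with ratios from 1.02 to 1.12. Against C1qa, a comparison that needs no scaling, Cfp was higher by 1.15-fold (1.12 to 1.19) with IL-36 gamma, and against C3 by 1.04 (0.998 to 1.08). Neutrophils also make properdin, and the IL-36 gamma library held more of their markers. The 9 listed summed to 3469 counts with IL-36 gamma and 2240 in the control, 5 of 8 measured intervals lay above 1 and 0 below, and Ly6g, a defining marker, had 9 counts with IL-36 gamma and 8 in the control. Per kilobase of exon, Cfp had 590 CPM with IL-36 gamma and 525 in the control. S100a9, 1 of those markers, had 124 CPM per kilobase with IL-36 gamma and 72.9 in the control. The 5 monocyte markers summed to 1124 counts with IL-36 gamma and 710 in the control, with 4 intervals above 1 and 0 below. Both counts stand beside 20.2% above and 16.5% below over all measured genes. The part of these cells in the Cfp ratio was not tested.

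**Figure D4:**
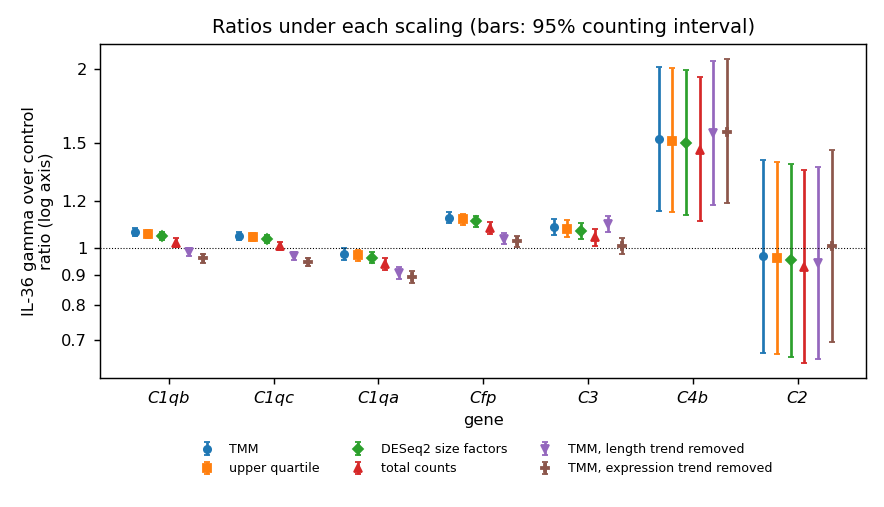
Ratio of IL-36 gamma over control (log axis) for each measured gene under 6 scalings, with 95% counting intervals. C4b and Cfp stay above 1 and C1qa below it throughout, whereas C1qb and C1qc cross 1 when the length or the expression trend is removed.

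The rest of the complement system was split between the directions. Of 54 other complement genes, 34 were measured, 8 had an interval above 1, 8 below and 18 including 1. Over all measured genes 20.2% lay above and 16.5% below. The whole interval was past 1.5-fold upwards for 0 of them and downwards for 2, against 0.348% and 0.529% of measured genes. Their median log2 ratio was 0.06. With scaling by total counts 5 were above 1 and 11 below, when 14.4% of all measured genes lay above and 22.4% below.

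Apart from the C1q chains, the listed genes that start the classical and lectin pathways were low. C1ra, the protease that C1q activates, had 158 counts with IL-36 gamma and 127 in the control, a ratio of 1.31 (1.03 to 1.66), the 1 of 6 measured genes in this group whose interval missed 1. The ficolin gene Fcna, a lectin that binds microbial sugars, had 395 counts with IL-36 gamma and 394 in the control, 1.05 (0.913 to 1.21). Masp2, the lectin pathway protease, had 220 counts with IL-36 gamma and 272 in the control, 0.849 (0.707 to 1.02), and shares 1817 of its 3307 exonic bases with genes of the opposite strand. The alternative pathway protease factor D (Cfd) had 0 counts in both libraries, which allows up to 0.177 CPM with IL-36 gamma and 0.169 in the control, the level of 3 counts. All 3 measured terminal genes had intervals that include 1. C8g had 77 counts with IL-36 gamma and 64 in the control, C8a had 18 with IL-36 gamma and 9 in the control, and Hc, which encodes C5, had 18 with IL-36 gamma and 17 in the control.

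Of 8 measured soluble regulators, 2 had an interval above 1, 1 below and 5 including 1. Vitronectin (Vtn), which blocks the terminal complex and is made in liver, had 89 counts with IL-36 gamma and 53 in the control, 1.76 (1.24 to 2.53). Its count ratio to Alb was 0.0644 with IL-36 gamma and 0.0500 in the control, a ratio of ratios of 1.29 (0.909 to 1.83), and the part of liver RNA in its difference was not tested. Clusterin (Clu) had 33 counts with IL-36 gamma and 39 in the control, 0.888 (0.541 to 1.45). On the membrane, Cd59a, which blocks pore assembly, had 112 counts with IL-36 gamma and 156 in the control, 0.754 (0.586 to 0.967). Cr1l, the rodent inhibitor Crry, had 930 counts with IL-36 gamma and 978 in the control, 0.998 (0.911 to 1.09). Cd55, which speeds the decay of convertases, had 835 with IL-36 gamma and 820 in the control, 1.07 (0.969 to 1.18).

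Of the 34 other complement genes measured, the receptor genes Vsig4 and Itgax were the 2 with an interval wholly past 1.5-fold. Vsig4, a receptor of resident macrophages for C3 fragments, had 61 counts with IL-36 gamma and 142 in the control, a ratio of 0.451 (0.328 to 0.613). Itgax, the alpha chain of complement receptor CR4, had 332 counts with IL-36 gamma and 644 in the control, a ratio of 0.541 (0.473 to 0.619). Itgam, the alpha chain of CR3, had 7063 counts with IL-36 gamma and 5793 in the control, 1.28 (1.24 to 1.33). It shares 3450 of its 5024 exonic bases with genes of the same strand. Itgb2, the beta chain shared by CR3 and CR4, had 19634 counts with IL-36 gamma and 19823 in the control, 1.04 (1.02 to 1.06). The C3a receptor gene C3ar1 had 24962 counts with IL-36 gamma and 25252 in the control, 1.04 (1.02 to 1.06). Lrp1, an endocytic receptor that takes part in the uptake of C1q-coated cells, had 49049 counts with IL-36 gamma and 69917 in the control, 0.736 (0.728 to 0.745). Of 13 measured receptor genes 5 had an interval above 1 and 6 below. Over all measured genes the shares were 20.2% above and 16.5% below, and 56.7% above and 22.4% below in the highest 10% by expression, which holds 8 of the 13.

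**Figure D5:**
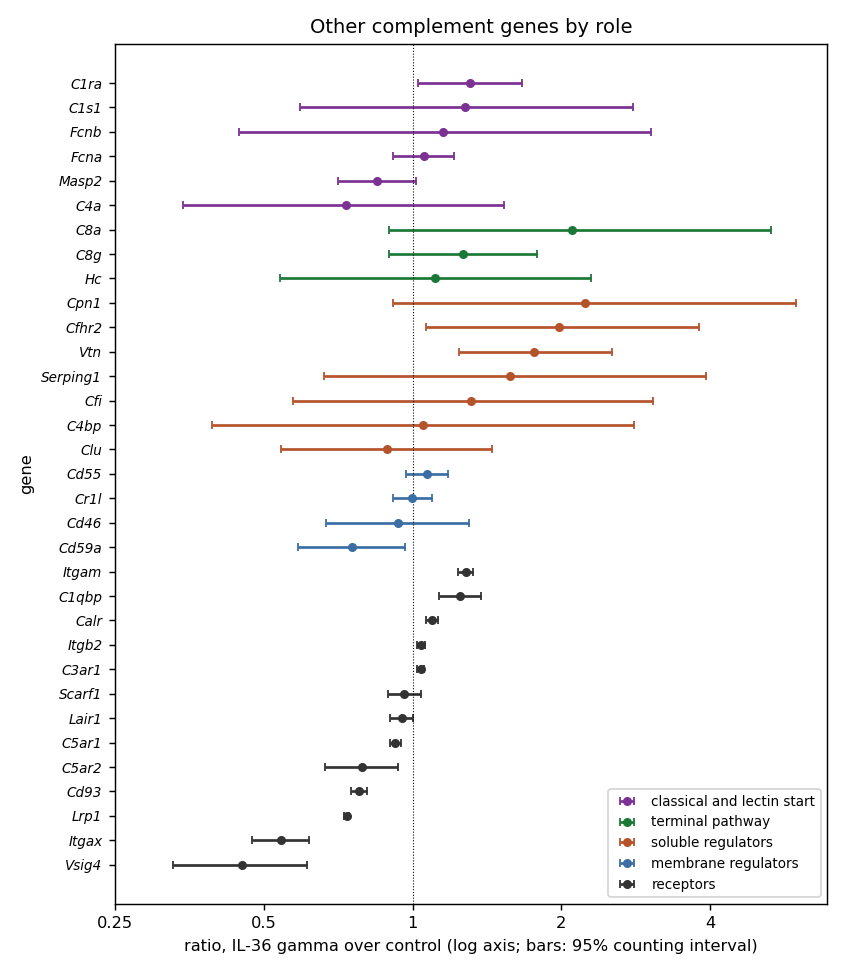
Ratio of IL-36 gamma over control (log axis) with 95% counting intervals for the measured complement genes outside the 8, grouped by role. Vsig4 (0.451) and Itgax lie farthest below 1 among receptors, and most intervals of the soluble regulators are wide. Not every measured gene is drawn.

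The chromosomal neighbours of the 8 genes had their own levels. Of the genes that flank the C1q cluster, Ephb2 had 8 counts with IL-36 gamma and 5 in the control, and Epha8 had 0 in both. Ehmt2, which lies 203 bases beyond C2, had 5002 counts with IL-36 gamma and 4728 in the control, 1.11 (1.07 to 1.16). Nelfe, next to Cfb, had 855 counts with IL-36 gamma and 732 in the control, 1.23 (1.11 to 1.36). Next to C4b, Tnxb had 8 counts with IL-36 gamma and 4 in the control, and Cyp21a1 had 0 in both. Beside C3, Gpr108 had 1395 counts with IL-36 gamma and 1286 in the control, 1.14 (1.05 to 1.23), and Tnfsf14 had 17 with IL-36 gamma and 13 in the control. Beside Cfp, Elk1 had 483 counts with IL-36 gamma and 479 in the control, and Syn1 had 485 with IL-36 gamma and 529 in the control, with intervals that include 1.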

How the data were processed

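Total RNA was taken with Trizol and libraries followed a standard Illumina preparation, per the labels' protocols. The authors deposited unnormalized whole-number counts for each Ensembl gene. Per the submitters' processing notes, STAR 2.5.0a, HTSeq, Trim Galore 0.6.1 and FastQC 0.11.8 were used, with the build mm10. Settings, strand and annotation release of the counting are not given in the sources used. The 5 rows that name no gene were left out. Of all counted reads, 46.3% with IL-36 gamma and 47.2% in the control overlapped no annotated feature. Ambiguous reads were 1.84% with IL-36 gamma and 1.79% in the control. Reads with more than 1 alignment were 6.92% with IL-36 gamma and 6.65% in the control. None of these reads was assigned to a gene. Symbols, positions and exons came from GENCODE M21, which held 54409 of 54446 gene IDs without version.

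Counts were scaled with TMM factors (edgeR 4.0.16, R 4.3.3), 0.981 for IL-36 gamma and 1.02 for the control. With 1 library in each group there are no residual degrees of freedom, so no edgeR or DESeq2 test was run. A gene counted as measured from a mean count of 10 upwards. A count of 0 was read as up to 3 counts. Bands holding 10% of genes each were set on mean CPM of the measured genes. Words of 50 bases were compared over all GENCODE transcripts.

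The genes and lists were chosen with earlier results of these data known. Named were all 8 genes, and of each role list the 3 most abundant measured genes and those with at least 50 counts whose interval lay past 1.25-fold, the genes that overlap or flank the 8, and transcription factor genes past 1.25-fold. Genes named outside this rule (C4a, Cfd, Itgam, markers and liver genes) were picked with their values in view. Values of some listed genes are left out. The alternatives were upper quartile scaling, size factors of DESeq2 1.42.0, total counts, lowess trends (span 0.3) on exon length and expression, count filters of 0 and 50, a 99% interval, the mean in place of the median and other lengths. Free exonic bases, and leaving out genes with shared sequence, were chosen after seeing the data. Computations ran in scipy 1.17.1, statsmodels 0.14.6, pandas 2.3.3 and numpy 2.4.6 under Python 3.11.15.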

Additional observations from a re-analysis of the deposited data

How the results depend on the processing

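Results past 1.5-fold and 2-fold (0 of the measured genes each) were the same under each alternative run, and so was the C4b ratio. With total counts the ratios were 0.938 for C1qa, 1.02 for C1qb, 1.01 for C1qc, 1.04 for C3 and 1.08 for Cfp. The interval of C1qc then included 1, leaving 4 genes above 1, and 5 other complement genes lay above 1. Of all measured genes, 14.4% lay above and 22.4% below with total counts. With the length trend removed the ratios were 0.907 for C1qa, 0.984 for C1qb, 0.968 for C1qc and 1.04 for Cfp. There, 3 genes lay above 1 and 2 below, beside 18.3% above and 14.3% below over all measured genes. The median log2 ratio of the genes was -0.023. With the expression trend removed the ratios were 0.891 for C1qa, 0.959 for C1qb, 0.945 for C1qc, 1.01 for C3 and 1.02 for Cfp. Then 2 genes lay above 1 and 3 below, beside 17.9% above and 17.8% below over all measured genes. With a 99% interval 0 genes lay below 1, and the share of all genes at that level is not given. Per exon length the C1q shares were 24.1% for C1qa, 47.0% for C1qb and 28.8% for C1qc with IL-36 gamma, and 25.6%, 45.9% and 28.5% in the control. These shifts follow from the other scaling or length itself. The DESeq2 and upper quartile factors moved no ratio outside its interval. Leaving out C2, C4b and Cfb left 4 genes above 1 and 1 below, beside 20.2% above and 16.5% below over all measured genes. No paired analysis was possible because each group has 1 library, and for the same reason no library could be left out. The depth limits C2 and Cfb, and the spread between cultures is unknown.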

Other observations

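Of 12 transcription factor genes with known roles at complement genes, 7 had an interval above 1, 1 below and 4 including 1, against 20.2% above and 16.5% below among all measured genes. In the highest 10% by expression, which holds 6 of the 12, the shares were 56.7% and 22.4%. Spi1, which encodes PU.1, had 16863 counts with IL-36 gamma and 13385 in the control, a ratio of 1.32 (1.29 to 1.35). Cebpb, a factor of the acute-phase response, had 5342 counts with IL-36 gamma and 4040 in the control, 1.39 (1.33 to 1.45), with 312 of 1504 exonic bases shared with a gene of the opposite strand. The levels of these factors were not related to the complement genes by any test, since 2 libraries allow none.

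Both libraries held further liver transcripts. Besides Alb, haptoglobin (Hp) had 469 counts with IL-36 gamma and 352 in the control. Apoa2 had 356 with IL-36 gamma and 292 in the control, and the urinary protein gene Mup3 had 128 with IL-36 gamma and 82 in the control. The ratio of the summed CPM was 1.38 for the 4 hepatocyte markers and 1.35 for the 22 further genes. Their source was not tested.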
